A study of Mus musculus with 3 samples.

Results

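The interleukin 6 (IL-6) family genes Il6, Lif, Il11, Il6st, Il6ra, Osmr, Lifr, Il11ra1, Socs3 and Stat3 were followed across the stromal cells of mouse subcutaneous fat. These 10 members, of 32285 genes in the count tables, are 3 ligands, the shared signalling receptor, 4 receptors that pair with it, the main transcription factor downstream and its feedback inhibitor. The cells came from the inguinal fat of 3 wild-type male C57BL/6J mice aged 8 weeks. Stromal vascular cells, the fraction left when collagenase-digested fat loses its floating adipocytes, were sorted to lack the endothelial protein CD31 and the leukocyte protein CD45. Each mouse gave 1 droplet library (10x 3′ chemistry), and there was 1 condition, so the comparisons are between cell classes of the same mice. No mouse carried a transgene or received a treatment, and the digestion is shared by all cells.

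Cells were sorted into classes by their counts of unique molecular identifiers (UMIs, each standing for 1 captured transcript). Progenitor cells had at least 3 UMIs of Dpp4 and Pi16 together and at most 1 of Icam1 and Fabp4 together. Preadipocyte cells had at least 4 UMIs of Icam1 and Fabp4 together and at most 1 of Dpp4. Regulatory cells had at least 1 UMI each of Clec11a and Fmo2 and at most 1 each of Fabp4 and Dpp4. Of 34577 kept cells, 19841 were progenitors, 5561 preadipocytes and 1058 regulatory cells, and cells that met more than 1 gate were left out. By their limits on Icam1 and Fabp4 the progenitor and preadipocyte gates cannot both be met. Cells with at least 3 UMIs of Dpp4 and Pi16 and at least 4 of Icam1 and Fabp4 numbered 571, 309 and 731. They were 4.40%, 4.82% and 4.82% of the kept cells of mice 1, 2 and 3 and could not enter the progenitor gate. Levels are given in CPM, the gene's UMIs summed over a class in a mouse and scaled to a common total. Differences were tested on these sums by the quasi-likelihood method of edgeR, with the mouse as a block and Benjamini-Hochberg adjustment over all genes.

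The libraries held 6872 to 16220 barcodes and 78108414 to 99328725 UMIs in kept cells, and library pairs shared 37 to 59 kept barcodes. Markers that no gate used followed the class names: Cd55, Anxa3, Sema3c, Wnt2, Bmp7, Smpd3 and Dact2 together reached 3233 to 4178 CPM in progenitors and 167 to 379 CPM in the other classes. Pparg, Lpl, Cd36, Plin2, Col4a1 and Cebpa together reached 6450 to 8029 CPM in preadipocytes, against 688 to 2816 CPM elsewhere. F3, Mgp, Gdf10, Meox2 and Cygb together reached 2330 to 2982 CPM in regulatory cells, against 175 to 981 CPM elsewhere. Of these, Cygb alone did not set regulatory cells (534, 611 and 444 CPM) apart from preadipocytes (400, 597 and 432 CPM). Pecam1, the defining endothelial marker, stayed at or under 7 CPM, and Ptprc, which encodes CD45, was at most 4.21 CPM in any class. The epithelial markers Epcam, Krt8 and Krt18 together were at 0, 0 and 108 CPM in the regulatory cells of mice 1, 2 and 3. Leukocyte markers were at 21.1, 0.270 and 0 CPM there. Leaving out every cell with a UMI of an epithelial or leukocyte marker changed the call of no member. Preadipocytes held 31.2, 55.0 and 3.91 CPM of the endothelial list, and the mural list (Abcc9, Kcnj8, Notch3 and Rgs5) was at 59.7 to 77.6 CPM in preadipocytes, 47.1 to 94.5 CPM in regulatory cells and 14.1 to 24.2 CPM in progenitors, most of it Abcc9. The sum of the mural list, like the Lifr, Osmr and Socs3 levels given below, was thus lowest in progenitors, but its genes differed. Abcc9 was also lowest there, while Kcnj8 was higher in progenitors (3.22, 5.40 and 6.06 CPM) than in preadipocytes (2.28, 2.02 and 1.99 CPM). Rgs5 was at 2.58 to 10.5 CPM in preadipocytes and 0.541 to 1.55 CPM in regulatory cells. Notch3 was at 10.9 to 15.2 CPM in preadipocytes, 2.16 to 3.10 CPM in regulatory cells and 0.616 to 0.730 CPM in progenitors. Leaving out cells with a UMI of residual-type markers, Pecam1, Ptprc and Rgs5 among them, changed the call of no member, and the log2 differences between progenitors and preadipocytes were then -2.20 for Lifr, -0.80 for Osmr and -0.89 for Socs3. The part of cells with the other mural markers was not tested.

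IL-6 family cytokines act through gp130, the protein made from Il6st, which pairs with a second receptor chain that sets which cytokine is heard. IL-6 is heard through Il6ra, IL-11 through Il11ra1, leukemia inhibitory factor (LIF) through Lifr, and oncostatin M mainly through Osmr in mice. The receptors activate Janus kinases that phosphorylate STAT3, and STAT3 induces Socs3, whose protein binds gp130 and dampens the signal. In adipose tissue stromal cells are a known source of IL-6, which is induced through NF-kB, AP-1 and C/EBP factors.

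These known inducers make the Il6 promoter, and the STAT motif of Socs3, the stretches worth showing. The Il6 gene lies at chr5:30013114-30019981 on the plus strand (GRCm38). The 250 bases before its RefSeq start, chr5:30012864-30013113, are printed below in lower case from the RefSeq tables for GRCm38.p6. The capitals mark matches, sought on both strands, to TGANTCA (AP-1), to ATTG and CAAT with 2 bases between them (a C/EBP palindrome) and to GGGA and TTTCC with 1 base between them (NF-kB). For Socs3, at chr11:117966079-117970047 on the minus strand, only the bases around its match to the STAT dimer motif TTCNNNGAA are given, chr11:117969502-117969530, read on the gene's strand.
Il6: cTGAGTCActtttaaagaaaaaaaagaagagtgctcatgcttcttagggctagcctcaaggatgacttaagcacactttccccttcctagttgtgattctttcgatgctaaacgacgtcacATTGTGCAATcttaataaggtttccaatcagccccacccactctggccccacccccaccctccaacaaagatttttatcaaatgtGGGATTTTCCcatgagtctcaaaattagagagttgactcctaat
Socs3: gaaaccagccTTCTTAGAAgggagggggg

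Over all 32851 promoter windows of 300 bases, the NF-kB motif was found in 0.411%, the C/EBP palindrome in 0.460%, the AP-1 motif in 7.81% and the STAT motif in 8.30%. The Il6 window held the first 3 of these and no STAT match. Of the 13 windows of the members, that of Socs3 was the one with a STAT match, 154 bases before the RefSeq start, which lies downstream of the GENCODE start printed above, so that the match is inside the GENCODE gene. AP-1 matches also lay in windows of Lif, Il11 and Osmr. A match describes these letters only and was not tied to the counts.

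Il6 was expressed in all 3 classes and was highest among them in regulatory cells. It was at 302, 445 and 652 CPM in the regulatory cells of mice 1, 2 and 3, at 157, 301 and 278 CPM in their progenitors, and at 92.4, 176 and 216 CPM in their preadipocytes. In each of the 3 mice the order was regulatory, progenitor, preadipocyte, and mouse 1 was the lowest in every class, so that progenitors and preadipocytes overlapped between mice. Il6 rose in regulatory cells against preadipocytes by 1.59 on the log2 scale (SE 0.112, edgeR adjusted p = 6.8e-07) and against progenitors by 0.90 (SE 0.109, adjusted p = 3.3e-05). It was also higher in progenitors than in preadipocytes of 3 of 3 mice, by 0.69 (SE 0.105, adjusted p = 0.00012). Without the mouse as a block, which leaves the differences between mice in the error, the last 2 of these lost their calls (adjusted p = 0.11 for regulatory against progenitor cells and 0.23 for progenitors against preadipocytes).

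Lif, the gene of leukemia inhibitory factor, had another order. Progenitors held 15.97, 20.04 and 19.16 CPM of Lif, preadipocytes 6.85, 9.90 and 10.2 CPM, and regulatory cells 12.6, 8.38 and 15.5 CPM. The progenitors of every mouse lay above the preadipocytes and regulatory cells of every mouse. Lif was higher in progenitors than in preadipocytes by 1.10 (SE 0.137, adjusted p = 2.5e-05). In regulatory cells it fell by 0.72 against progenitors (SE 0.203, adjusted p = 0.012), a call that rested on 18, 31 and 30 Lif UMIs and was lost without mouse 2, where the log2 difference was -0.32 (adjusted p = 0.26). It was also lost with gates read on cells thinned to 3000 UMIs (adjusted p = 0.22), with sums of thinned cells (0.051) and without the block (0.11). Between regulatory cells and preadipocytes the Lif difference was 0.37 (SE 0.223, 95% interval -0.06 to 0.81, adjusted p = 0.26), but without mouse 2 it was 0.79 (adjusted p = 0.042).

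Il11 was close to the limit of detection in every class. Progenitors held 61, 119 and 96 UMIs of it (1.13, 3.10 and 1.56 CPM), preadipocytes 22, 38 and 22 UMIs (1.20, 2.08 and 1.62 CPM) and regulatory cells 4, 8 and 1 UMIs (2.81, 2.16 and 0.517 CPM). The classes overlapped, and none of the 3 differences passed the test (adjusted p from 0.46 to 0.98). In mouse 2, 10 progenitors with at least 3 Il11 UMIs held 64.7% of the progenitors' Il11 UMIs, and the highest cell had 22.

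**Figure D1:**
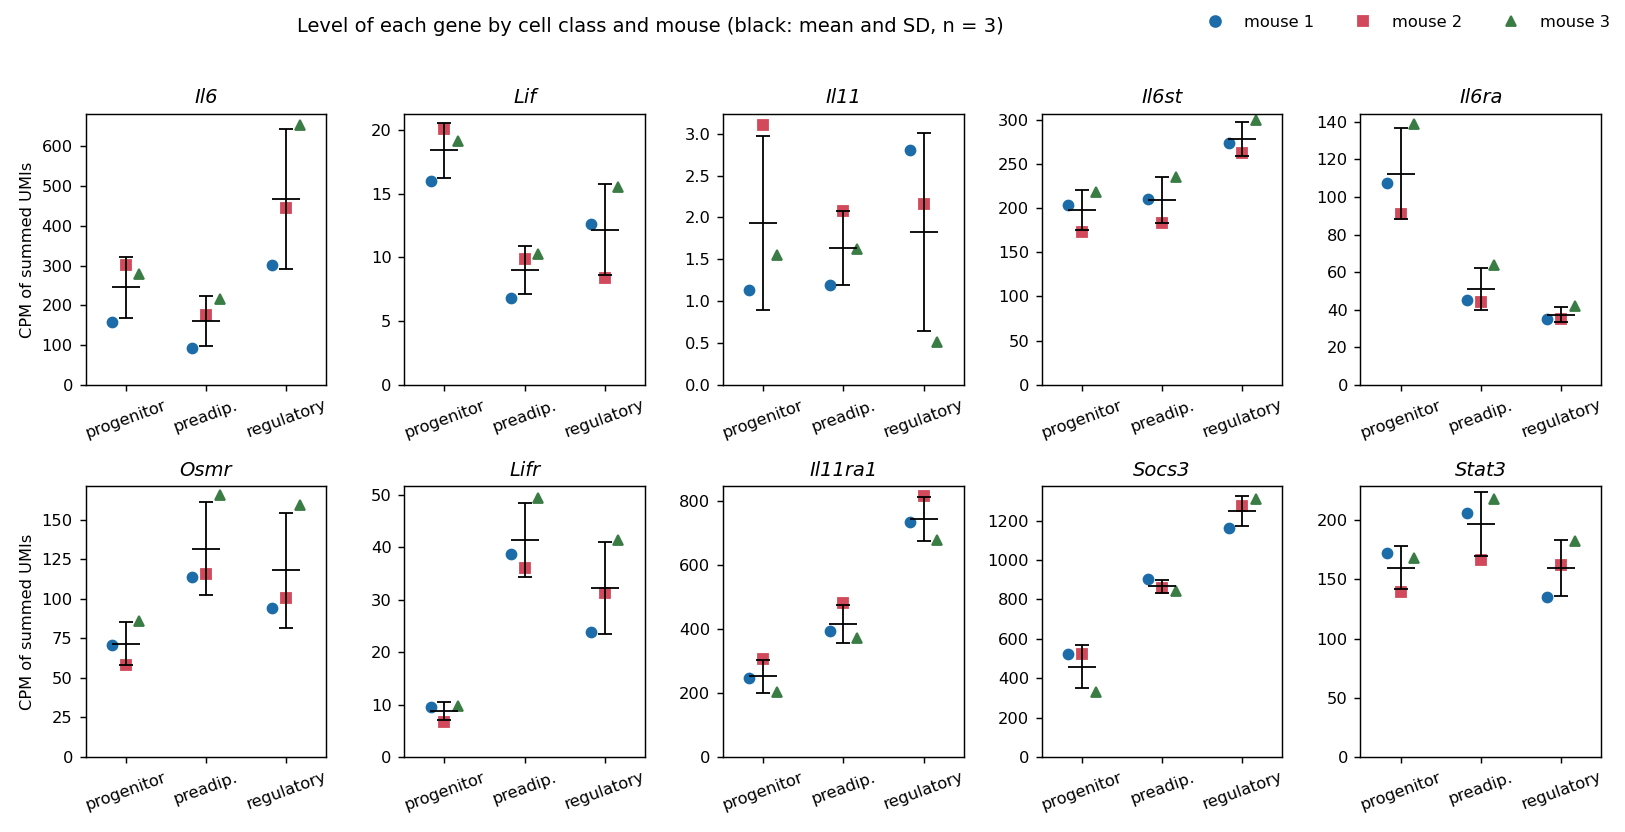
CPM of summed UMIs of the 10 genes (y axis, linear from 0, scaled per panel) in the 3 cell classes (x axis), with a point per mouse and the mean and SD over 3 mice in black. Il6, Il11ra1 and Socs3 have their highest means in regulatory cells (466, 744 and 1250 CPM), Il6ra and Lif in progenitors (112 and 18.4 CPM), and Lifr is lowest in progenitors (8.70 CPM).

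Among the receptors, Il6ra was highest in progenitors, while the other partner chains were lowest there. Il6ra, the chain that binds IL-6, was at 108, 90.9 and 139 CPM in progenitors, 45.2, 44.3 and 63.9 CPM in preadipocytes and 35.1, 34.9 and 41.8 CPM in regulatory cells. No class overlapped another across mice. Progenitors exceeded preadipocytes in Il6ra by 1.19 (SE 0.068, adjusted p = 1.9e-08), and in regulatory cells it fell by 1.57 against progenitors (SE 0.093, adjusted p = 6.9e-08). The smaller fall of 0.38 in regulatory cells against preadipocytes (SE 0.099, adjusted p = 0.014) was lost without mouse 3, where it was -0.29 (adjusted p = 0.14), and with stricter gates (0.056), thinned gates (0.25), thinned sums (0.063) or no block (0.31).

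Lifr, the LIF receptor chain, showed the widest gap of the 10 genes. It was at 9.61, 6.73 and 9.75 CPM in progenitors, 38.8, 36.2 and 49.5 CPM in preadipocytes and 23.9, 31.4 and 41.3 CPM in regulatory cells. Progenitors lay below both other classes in every mouse. Lifr fell by 2.19 in progenitors against preadipocytes (SE 0.100, adjusted p = 2.5e-09) and was 1.93 higher in regulatory cells than in progenitors (SE 0.150, adjusted p = 7.2e-07). The progenitors, which held the most Lif, thus held the least of its receptor chain.

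Osmr, the oncostatin M receptor chain, was at 70.8, 58.4 and 85.7 CPM in progenitors, 114, 116 and 166 CPM in preadipocytes and 94.1, 100.3 and 160 CPM in regulatory cells. Its level was lower in progenitors than in preadipocytes, with a log2 difference of -0.82 (SE 0.077, adjusted p = 1.9e-06), and 0.71 higher in regulatory cells than in progenitors (SE 0.090, adjusted p = 4.8e-05; 0.054 without the block). The preadipocytes and regulatory cells overlapped in both Osmr and Lifr. Their differences were -0.11 for Osmr (95% interval -0.28 to 0.07, adjusted p = 0.43) and -0.26 for Lifr (-0.53 to 0.00, adjusted p = 0.19).

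Il11ra1, the IL-11 receptor chain, rose stepwise from progenitors (248, 307 and 204 CPM) to preadipocytes (393, 483 and 373 CPM) and regulatory cells (736, 816 and 680 CPM). No class overlapped another. The log2 difference was 1.57 between regulatory cells and progenitors (SE 0.075, adjusted p = 1.1e-08), 0.89 between regulatory cells and preadipocytes (SE 0.074, adjusted p = 2.8e-06) and -0.67 between progenitors and preadipocytes (SE 0.072, adjusted p = 6.0e-06). Il11ra1 (chr4:41699989-41769474) has a near-identical copy, Il11ra2, whose 3 entries held 0 UMIs in every class. Whether reads that fit both genes were lost from the Il11ra1 level was not tested, so that level is uncertain. Exons of Il11ra1, Il6ra and Stat3 overlap genes on the opposite strand (Ccl27a, Gm42809 and Stat5a), which strand-aware counting keeps apart.

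Il6st, which encodes gp130, differed little between progenitors and preadipocytes and was higher in regulatory cells. It was at 203, 173 and 218 CPM in progenitors and 210, 183 and 235 CPM in preadipocytes, which overlapped and differed by -0.03 (95% interval -0.14 to 0.09, adjusted p = 0.74). Regulatory cells, at 274, 262 and 300 CPM, lay above both. There Il6st was 0.50 higher than in progenitors (SE 0.063, adjusted p = 4.7e-05) and 0.47 higher than in preadipocytes (SE 0.063, adjusted p = 0.00016; 0.058 without the block).

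Downstream of the receptors, Socs3 differed between all classes and Stat3 by much less. Socs3, the feedback inhibitor, was at 521, 524 and 332 CPM in progenitors, 905, 859 and 841 CPM in preadipocytes and 1165, 1277 and 1308 CPM in regulatory cells, with no overlap. It fell by 0.88 in progenitors against preadipocytes (SE 0.121, adjusted p = 5.4e-05). In regulatory cells Socs3 was 1.47 higher than in progenitors (SE 0.125, adjusted p = 1.6e-06) and 0.58 higher than in preadipocytes (SE 0.123, adjusted p = 0.0041; 0.055 without the block). Genes known to respond to tissue dissociation moved with this order in part. The 19 genes of that list, immediate early and heat shock genes, summed to 17528 to 21139 CPM in progenitors, 26140 to 31936 CPM in preadipocytes and 26056 to 29284 CPM in regulatory cells. Their part in the Socs3 and Il6 levels was not tested.

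Stat3 was at 173, 140 and 168 CPM in progenitors, 206, 167 and 218 CPM in preadipocytes and 135, 162 and 182 CPM in regulatory cells. All classes overlapped. Its difference of -0.24 between progenitors and preadipocytes passed the test (SE 0.083, adjusted p = 0.026) but not without mouse 3 (-0.21, adjusted p = 0.18) or without the block (0.28). The differences of regulatory cells were 0.02 against progenitors (95% interval -0.16 to 0.20, adjusted p = 0.90) and -0.22 against preadipocytes (-0.41 to -0.04, adjusted p = 0.11). With no filter on low counts the latter was -0.26 and passed (adjusted p = 0.013).

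Counted over the members, 8 of 10 passed the test between progenitors and preadipocytes, where 56.4% of 13258 genes did. Of these, 3 were higher in progenitors (29.2% of all genes) and 5 lower (27.2%). Between regulatory cells and progenitors 8 of 10 passed against 42.9% of all genes, 6 of them higher in regulatory cells (18.9% of all genes) and 2 lower (24%). Between regulatory cells and preadipocytes 5 of 10 passed against 25.7%, 4 of them higher (12.3%) and 1 lower (13.4%). The members' median log2 difference in these comparisons was -0.13, 0.60 and 0.20, beside -0.00, -0.05 and -0.04 over all genes. A change of at least 2-fold was reached by 3 members (Lif, Il6ra and Lifr) in the first comparison, where 19.7% of all genes reached it. In the second it was reached by 4 members (Il6ra, Lifr, Il11ra1 and Socs3; 16.9% of all genes) and in the last by Il6 alone (9.84%).

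**Figure D2:**
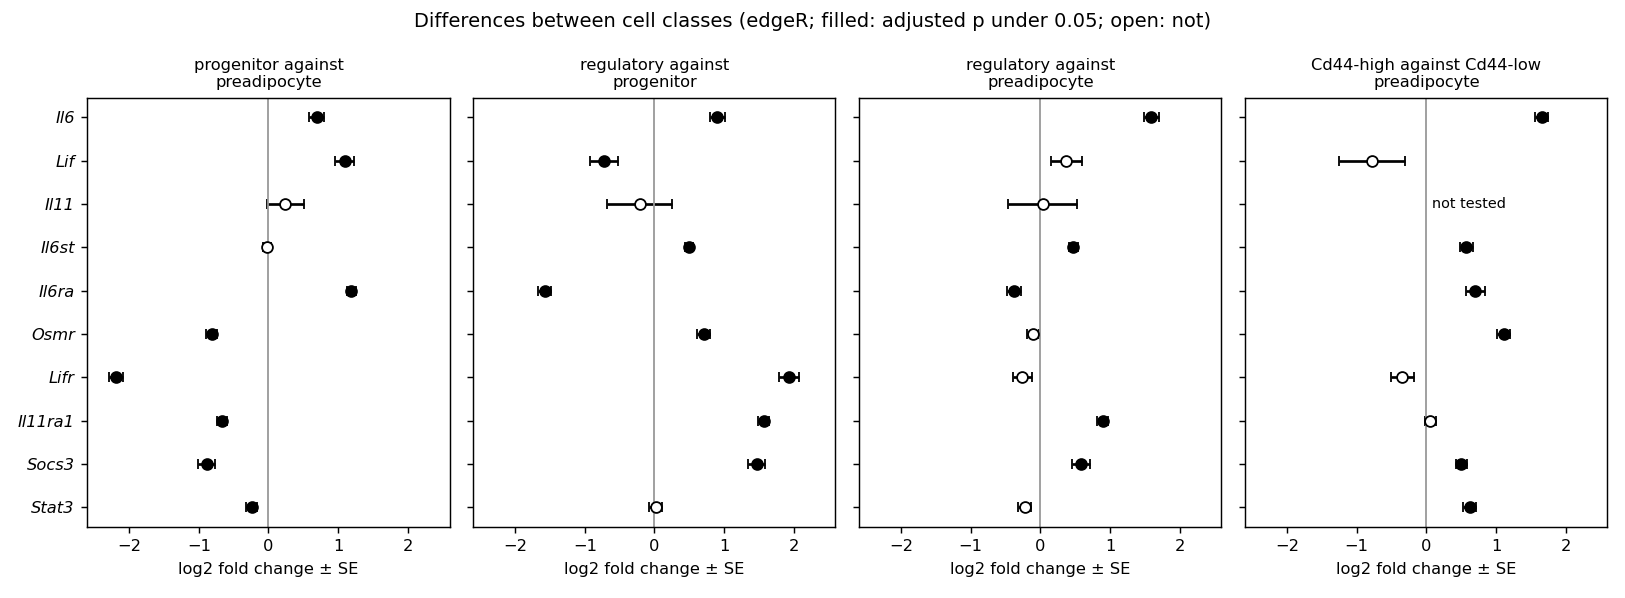
Log2 fold change with its SE (x axis) of each gene (y axis) in the 4 comparisons, from edgeR with the mouse as a block. Filled points passed an adjusted p of 0.05, open points did not. Lifr reaches -2.19 in progenitors against preadipocytes, and Il6 reaches 1.59 in regulatory cells and 1.66 in Cd44-high cells.

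The share of cells with a UMI was compared after thinning every cell to 3000 UMIs, since regulatory cells were shallower (median 4945, 10104.5 and 4575 UMIs) than progenitors (7329, 12052 and 6690) and preadipocytes (8083, 12977 and 7296). Thinning left out 61, 42 and 109 regulatory cells, 570, 63 and 803 progenitors, and 59, 35 and 67 preadipocytes. An Il6 UMI was then found in 34.0%, 45.6% and 53.2% of regulatory cells, 24.6%, 30.5% and 36.1% of progenitors and 15.4%, 21.9% and 27.8% of preadipocytes of mice 1, 2 and 3. Within each mouse the exact Clopper-Pearson 95% intervals of the 3 classes did not overlap, and they cover counting error only. Without thinning the shares were 44.8% to 61.4%, 38.5% to 50.9% and 26.1% to 41.0%, in the same order.

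Lif was detected in 4.26%, 5.05% and 5.12% of thinned progenitors, 2.25%, 1.84% and 2.69% of preadipocytes and 1.44%, 3.51% and 3.05% of regulatory cells (unthinned 9.77% to 18.2%, 4.43% to 8.03% and 5.19% to 6.77%). Il6ra was found in 26.4%, 22.1% and 32.6% of progenitors and in 7.66%, 11.4% and 11.9% of regulatory cells (unthinned 47.9% to 57.4% and 15.2% to 25.3%). Lifr was found in 2.03% to 2.86% of progenitors, 9.64% to 13.8% of preadipocytes and 5.74% to 11.5% of regulatory cells (unthinned 5.77% to 7.26%, 23.6% to 33.2% and 10.4% to 22.7%). Il11ra1 and Socs3 were seen in most regulatory cells, at 85.4% to 88.3% and 87.1% to 88.0%. In preadipocytes they were at 63.3% to 70.7% and 73.2% to 81.4%, and in progenitors at 42.4% to 55.6% and 46.3% to 61.5% (unthinned, 85.9% to 94.3%, 87.6% to 95.8% and 65.7% to 89.6% for Il11ra1, and 86.4% to 91.9%, 88.4% to 91.5% and 63.3% to 78.7% for Socs3). In thinned cells the shares ranked the classes of each mouse as the summed levels did for these genes, apart from Lif between preadipocytes and regulatory cells, where the order was the opposite in mice 1 and 2.

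Cells with endothelial or leukocyte markers were looked at for what free RNA might give, but they were few. Cells with endothelial markers and enough UMIs numbered 18, 9 and 6, and an Il6 UMI was seen in 5, 1 and 2 of them. All 37, 37 and 8 cells with endothelial markers, those too shallow to be thinned included, had median depths of 2763, 1907 and 5609 UMIs. Among the 18 cells with enough UMIs in mouse 1, the Il6 share was 27.8%, with an interval of 9.69% to 53.5%, which holds that of the progenitors. Cells with leukocyte markers numbered 3, 4 and 3, with an Il6 UMI in 0, 0 and 1 of them. All cells with endothelial markers together also held 408 to 1099 CPM of the progenitor gate gene Pi16 in the 3 mice. Whether they made Il6 themselves was not tested. The level of free RNA therefore could not be set from these cells.

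**Figure D3:**
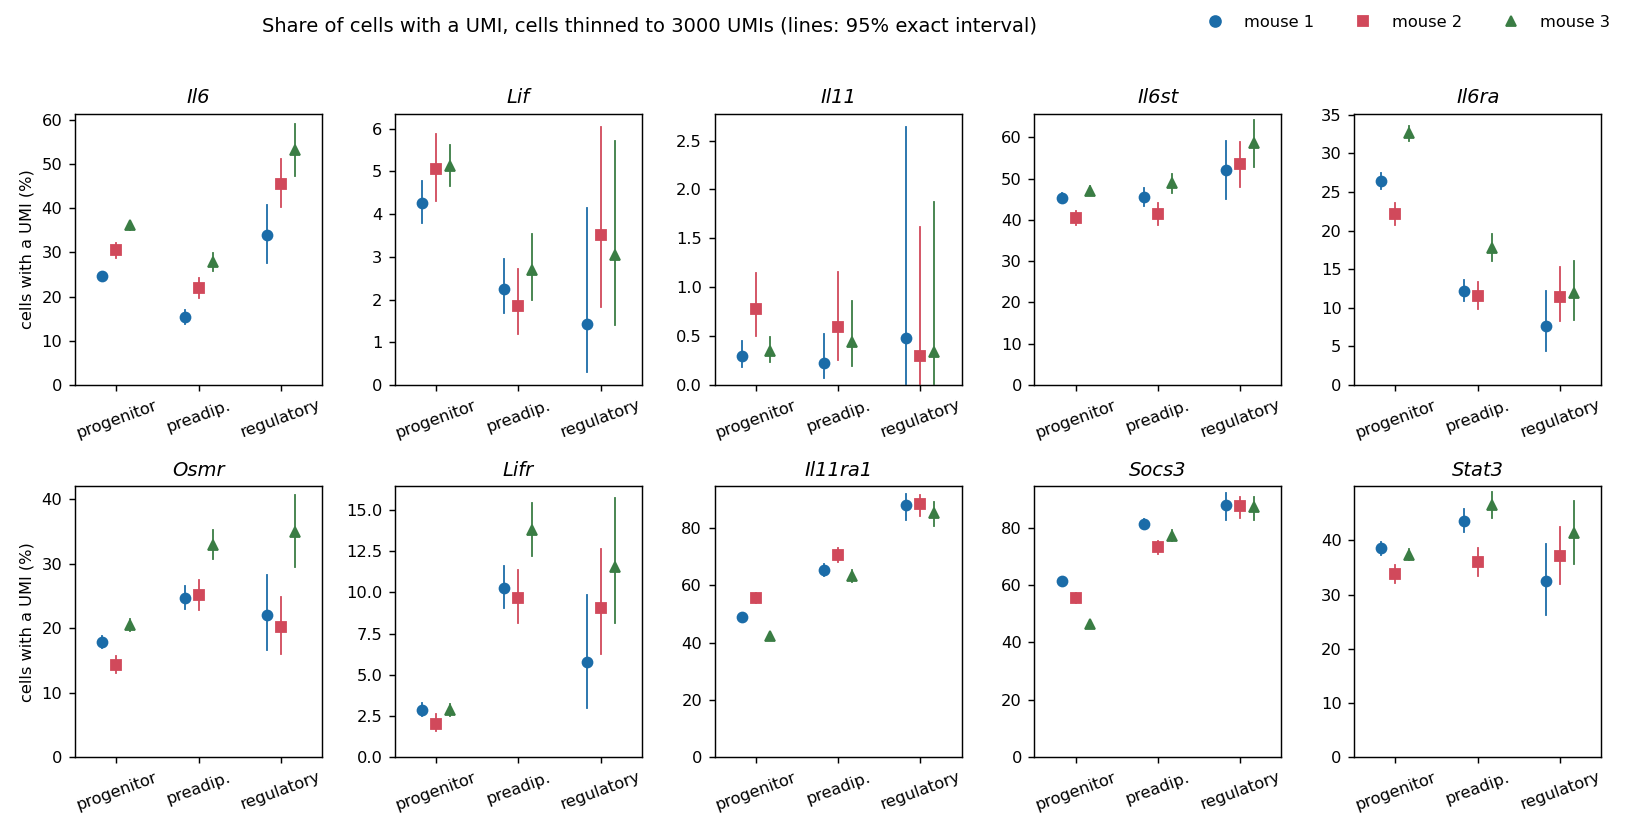
Percent of cells with at least 1 UMI of each gene (y axis, linear from 0, scaled per panel) by class (x axis) and mouse, after thinning each cell to 3000 UMIs, with exact 95% intervals for counting error. In regulatory cells the Il6 share is 34.0% to 53.2%, and in progenitors the Lifr share is 2.03% to 2.86%.

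Il6 transcripts were unevenly spread among cells. Progenitors with at least 3 Il6 UMIs made up 15.1%, 28.5% and 21.9% of the progenitors of mice 1, 2 and 3 and held 73.7%, 91.8% and 79.9% of their Il6 UMIs. In preadipocytes 8.78%, 17.4% and 17.5% of cells held 70.6%, 88.3% and 80.2%, and in regulatory cells 21.5%, 40.6% and 38.4% held 80.2%, 94.0% and 90.0%. The highest preadipocyte had 103 Il6 UMIs, in mouse 2, the library with the greatest depth per cell. Of all Il6 UMIs of kept cells, progenitors held 58.4%, 49.3% and 55.4%, close to their 56.7%, 49.1% and 62.1% of all UMIs. Regulatory cells held 2.97%, 7.03% and 4.08% of Il6 UMIs, with 1.50%, 4.73% and 1.95% of all UMIs.

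Preadipocytes were next split by UMIs of Cd44, the gene of the hyaluronan receptor by whose surface protein the study sorted ICAM1+ cells. A cell without a Cd44 UMI can still express the gene, so the groups need not match the sorted populations. Preadipocyte cells with at least 5000 UMIs were thinned to 5000, and those with at least 2 Cd44 UMIs (150, 127 and 180 cells) were compared with those without any (1585, 955 and 1122 cells). Here 6 of the 9 members tested passed, all higher in Cd44-high cells, where 9.84% of 9978 genes passed, 7.11% as higher and 2.74% as lower. A change of at least 2-fold was reached by Il6 and Osmr, and by 2.39% of all genes. With scaling by library size alone the genes that passed split into 529 higher and 480 lower, in place of 709 and 273. The members' median log2 difference was 0.57, beside -0.01 over all genes.

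Il6 was at 232, 370 and 419 CPM in Cd44-high cells and 71.3, 117 and 161 CPM in Cd44-low cells. The groups did not overlap, and the log2 difference was 1.66 (SE 0.095, adjusted p = 3.4e-12). Osmr, at 205, 203 and 273 CPM against 102, 97.2 and 136 CPM, also did not overlap and was 1.11 higher (SE 0.096, adjusted p = 4.9e-09). Both remained past the threshold without the block (adjusted p = 0.040 and 0.032).

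Smaller rises were seen in 4 other members, and the block carried their calls. Il6ra was at 64.0, 50.4 and 95.6 CPM against 44.9, 39.2 and 53.5 CPM, higher in 3 of 3 mice with overlap between mice, and differed by 0.70 (SE 0.141, adjusted p = 0.0012), but without mouse 3 by 0.52 (adjusted p = 0.11). Stat3 was at 312, 244 and 247 CPM against 197, 154 and 202 CPM and differed by 0.62 (SE 0.097, adjusted p = 6.1e-05). Il6st, at 247, 263 and 309 CPM against 205, 171 and 207 CPM, was 0.57 higher (SE 0.096, adjusted p = 0.00015). Socs3, at 1085, 1254 and 973 CPM against 882, 797 and 801 CPM, was 0.50 higher (SE 0.079, adjusted p = 7.6e-05). Stat3, Il6st and Socs3 did not overlap between the groups. Without the block the adjusted p of these 4 genes lay between 0.14 and 0.25.

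The remaining members were not called in the Cd44 comparison. Il11ra1 differed by 0.06 (95% interval -0.10 to 0.21, adjusted p = 0.74), and its sign turned to -0.03 with scaling by library size alone. Lifr differed by -0.34 (-0.68 to -0.01, adjusted p = 0.23). Lif had 0, 6 and 5 UMIs in Cd44-high cells, against 52, 48 and 54 UMIs in the far more numerous Cd44-low cells. The 0 in mouse 1 allows up to 4 CPM, and the difference of -0.78 (-1.72 to 0.16, adjusted p = 0.36) turned positive when cells were not thinned. Il11, with 1 UMI in the Cd44-high cells of each mouse, was below the count filter and not tested.

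**Figure D4:**
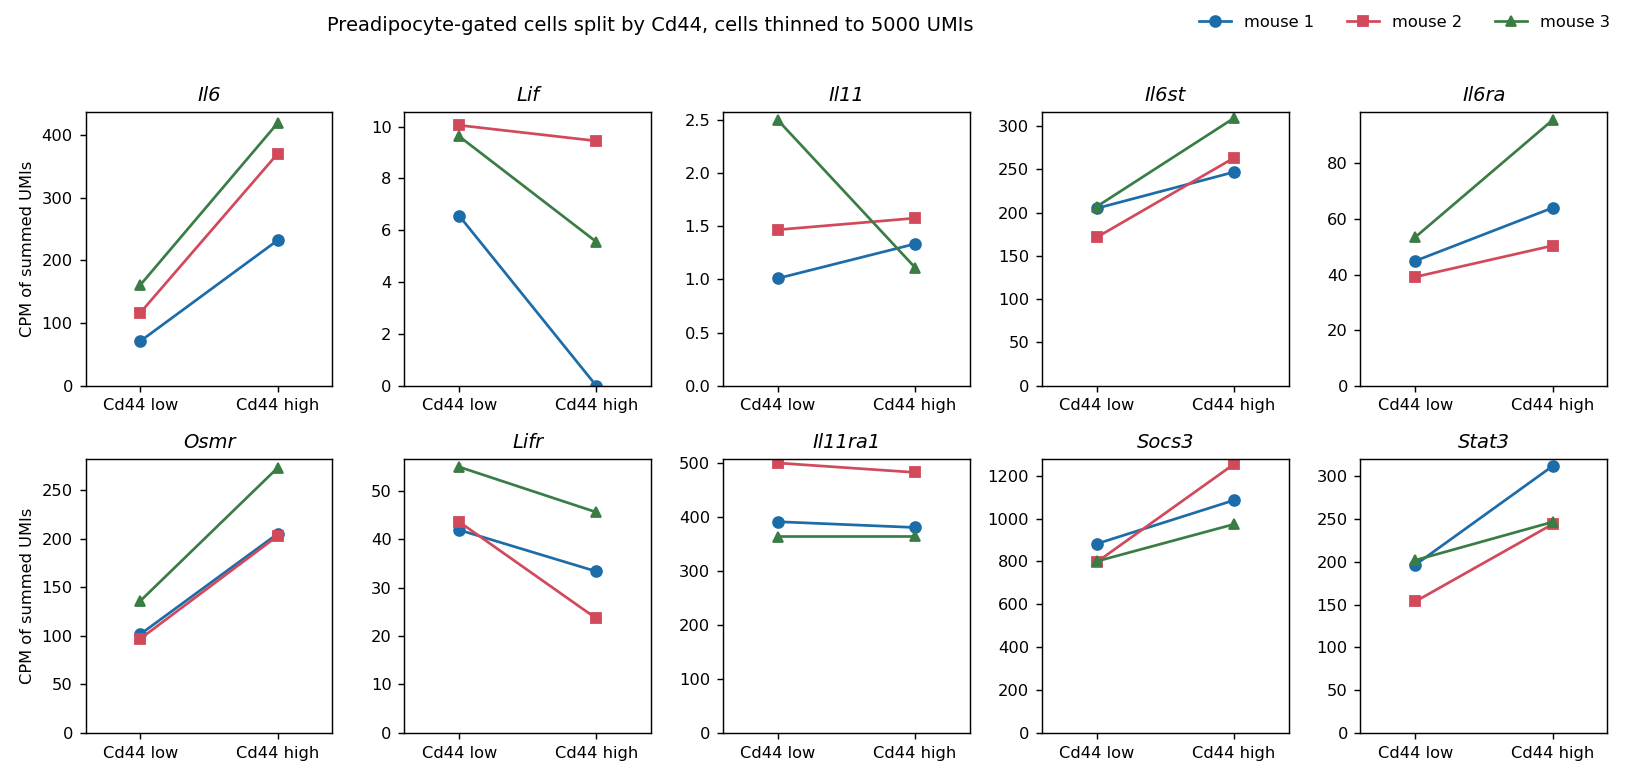
CPM of summed UMIs (y axis, linear from 0, scaled per panel) in Cd44-low and Cd44-high preadipocytes (x axis), with a line joining the values of each mouse. Il6 goes up in each mouse, from 71.3, 117 and 161 CPM to 232, 370 and 419 CPM, while the lines of Il11ra1 are near level.

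Within single cells, the receptor chains were detected together about as often as their shares alone would give. Il6ra and Il6st were both detected in 12.0%, 9.11% and 15.6% of thinned progenitors, where the product of their shares is 12.0%, 8.96% and 15.3%. For Osmr with Il6st it was 8.36%, 5.73% and 10.4%, beside 8.11%, 5.80% and 9.64%. Both chains of the LIF receptor were detected in 1.38%, 0.901% and 1.37% of progenitors. A cell that expresses both genes can lack a UMI of either at this depth, so these shares do not count the cells able to respond.

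Socs3 was detected more often in cells that also had an Il6 UMI. In progenitors it was found in 69.0%, 67.7% and 55.0% of cells with an Il6 UMI and in 59.0%, 50.3% and 41.4% of cells without. In preadipocytes the shares were 91.2%, 85.9% and 88.0% against 79.7%, 69.7% and 73.2%, and in regulatory cells 93.0%, 94.9% and 93.0% against 85.5%, 81.2% and 80.4%. The direction was the same in all 3 classes of all 3 mice. With Lif it was the opposite in progenitors, where Socs3 was found in 55.0%, 48.4% and 39.6% of the 291, 157 and 434 cells with a Lif UMI and in 61.7%, 56.0% and 46.7% of those without. These shares describe cells of the same libraries and were not tested.

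**Figure D5:**
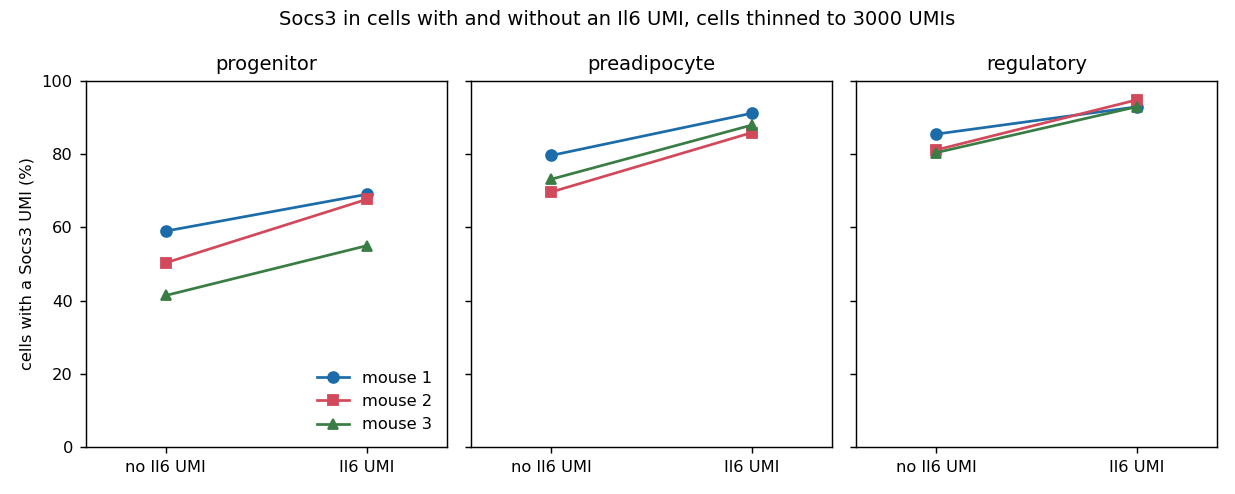
Percent of cells with a Socs3 UMI (y axis, 0 to 100) among cells without and with an Il6 UMI (x axis), by class and mouse, after thinning to 3000 UMIs. All 9 lines go up, in progenitors of mouse 1 from 59.0% to 69.0%.

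Of 2421 genes compared, ranked by the lowest of the 3 mice's log2 ratios of CPM in thinned cells with and without an Il6 UMI, the first 10 were Itpkc, Socs1, Ptx3, Cxcl2, Il17ra, Cxcl1, Sbno2, Has1, Mt1 and Enc1. Socs1, a cytokine signalling inhibitor, was at 151, 140 and 89.5 CPM in cells with Il6 and 82.0, 57.7 and 39.8 CPM in cells without. Ptx3, a soluble pattern recognition protein, was at 836, 1064 and 1168 CPM against 456, 356 and 650 CPM. Cxcl1 and Cxcl2, neutrophil chemokines, had lowest log2 ratios of 0.66 and 0.81.

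For Lif, also in thinned progenitors, the ratios were smaller, from 0.33 to 0.66 in the lowest mouse over the first 10 of 2361 genes. These genes were Dgat1, Slco2a1, Nptx2, Emd, Cxcl10, Nr4a3, Il6, Clasp2, Cxcl1 and Usp37. Il6 itself was at 204, 372 and 367 CPM in cells with Lif and 153, 289 and 275 CPM in cells without. Cxcl1 was on both lists. The immediate early gene Nr4a3 was at 380, 669 and 564 CPM against 292, 388 and 423 CPM.

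The wider pathway was read from a list of 46 genes. Of its ligands, Osm, Cntf, Ctf1, Clcf1, Il27, Ebi3 and Il31 were each at most 2.01 CPM in any class and mouse, and Osm, the ligand of Osmr, was at most 0.221 CPM. Of the 40 genes tested, 14 were higher and 19 lower in progenitors than in preadipocytes, beside 29.2% and 27.2% of all genes, and their median log2 difference was -0.06, beside -0.00. Regulatory cells had 15 of 40 higher and 12 lower than progenitors, beside 18.9% and 24% of all genes, with a median of 0.26 beside -0.05. Against preadipocytes 12 of 40 were higher and 7 lower, beside 12.3% and 13.4% of all genes, with a median of 0.20 beside -0.04. In Cd44-high cells 15 of 32 were higher and 1 lower, beside 7.11% and 2.74% of all genes, with a median of 0.33 beside -0.01.

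Cntfr, the receptor of ciliary neurotrophic factor, was at 1.82, 1.95 and 1.23 CPM in progenitors, 12.8, 20.9 and 15.4 CPM in preadipocytes and 23.9, 29.8 and 20.1 CPM in regulatory cells. It fell by 3.23 on the log2 scale in progenitors against preadipocytes (SE 0.155, adjusted p = 4.2e-09), the direction of Lifr, with which it pairs at the cell surface. Steap4, a metalloreductase known as a STAT3 target, was at 34.6, 41.5 and 39.6 CPM in progenitors, 336, 426 and 445 CPM in preadipocytes and 550, 620 and 546 CPM in regulatory cells. Timp1, a metalloproteinase inhibitor on the same target list, was 1.87 higher in regulatory cells than in preadipocytes (SE 0.126, adjusted p = 5.0e-07), at 193, 255 and 273 against 58.4, 81.8 and 64.2 CPM.

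Of the 17 STAT3 targets on the list, 8 were higher and 4 lower in regulatory cells than in progenitors, beside 18.9% and 24% of all genes. Against preadipocytes 9 were higher and 2 lower in regulatory cells, beside 12.3% and 13.4%, and in progenitors 6 were higher and 7 lower, beside 29.2% and 27.2%. Lcn2 and Saa3, targets with few UMIs, leaned on mouse 3 in regulatory cells (Lcn2 0, 0.541 and 9.30 CPM, Saa3 0, 0.811 and 11.4 CPM), the library with epithelial markers in that class, whose part was not tested. Of 4 inhibitors tested, 2 were higher and 1 lower in regulatory cells than in progenitors, beside 18.9% and 24% of all genes. Cish was 2.32 higher (SE 0.213, adjusted p = 3.0e-06) and Socs1 1.44 higher (SE 0.164, adjusted p = 1.9e-05). Cish was also 1.05 higher in Cd44-high cells (SE 0.231, adjusted p = 0.0031). There Stat5a was 1.49 higher (SE 0.193, adjusted p = 4.4e-06), at 36.0, 36.2 and 133 CPM against 22.0, 19.7 and 34.6 CPM, and Zc3h12a, whose protein degrades Il6 mRNA, was 1.10 higher (SE 0.125, adjusted p = 5.4e-07).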

How the data were processed

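UMI counts per gene and barcode were deposited by the authors, unnormalized, from 3 libraries of 1 mouse each, made with Cell Ranger on mm10 (version 2.1.1 per the submitters' processing notes, 4.0.0 per the file headers). Cells with more than 500 genes and under 5% mitochondrial UMIs were kept. Sums per mouse and class were tested with edgeR 4.0.16 (R 4.3.3; filterByExpr, TMM, mouse as a block) in 1 fit of 9 class sums and another of 6 Cd44 sums, with calls at an adjusted p under 0.05, after a check on simulated data. In that check 20 of 205 calls between progenitors and preadipocytes were false, a larger share than the 0.05 aimed at, and 8 of 167 in the Cd44 fit. The simulated data held far fewer changed genes than the 7471 called between these classes, so the check does not match that setting. Of genes changed 2-fold, 84 of 98 and 57 of 92 were recovered. Gate genes and, in its split, Cd44 were left out of counts of changed genes. The p-values rest in part on how differences between classes or Cd44 groups vary over 3 mice, with differences between mice taken out by the block. The quasi-likelihood method also shares the estimate of this spread between genes, so small p-values do not rest on the 3 mice alone. Intervals of log2 differences are 1.96 SE to each side and are somewhat narrower than the test's own. That of Lifr in the Cd44 split excludes no difference, at an unadjusted edgeR p of 0.054. The sums of a mouse come from 1 animal, and after class means were removed they correlated across genes with r from 0.153 to 0.676 between classes and 0.308 to 0.416 between Cd44 groups. No doublet caller was run, but an alternative left out the 10% of cells with most UMIs. Others were RLE or library-size scaling, no filter, DESeq2 1.42.0, limma-voom 3.58.1, no block, other gates, depths and mitochondrial limits, leaving out cells with markers of other types (chosen after seeing the data), and leaving out each mouse.

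Genes named beyond the members and cell type markers were picked from pathway genes called with a log2 change of at least 1 (at most 8 per comparison). Others were ligands of low level, the 10 most alike in progenitors with Il6 or Lif, and the 4 largest changes of the dissociation list. Not every pathway gene that met the rule is named, and 1 gene of that list is in the counts but not reported here. Members and lists were chosen with earlier results of these data known. Positions are from GENCODE for GRCm38, in which 32158 identifiers were found.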

Additional observations from a re-analysis of the deposited data

How the results depend on the processing

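Of 611 log2 differences of members recomputed under alternatives, 573 kept their direction and side of the threshold, 21 lost their call, 2 gained one and 15 changed sign, none of which had been called. Without the replicate block the genes changed fell to 3996 (progenitor against preadipocyte), 3130 (regulatory against progenitor), 1531 (regulatory against preadipocyte) and 74 (Cd44), from 7471, 5694, 3405 and 982, and the members changed to 5, 2 and 2 in the last 3, from 8, 5 and 6; the calls of members lost with it are those given with the results, and no other call changed. Gates on thinned cells gave 3411 and 1893 genes in the comparisons of regulatory cells, and thinned sums 2088 against preadipocytes. For Cd44, DESeq2 gave 432 genes, thinning to 3000 UMIs 560 and no thinning 2037. The cause was not tested.

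Leaving out each mouse gave 6117 to 6625, 4173 to 4792, 2053 (without mouse 2) to 2800 and 548 (without mouse 2) to 939 genes, with 600 without mouse 3 for Cd44, and 7 to 8, 7 to 8, 4 to 6 and 5 to 6 members.

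Signs changed for Il11 between progenitors and preadipocytes (-0.0103 without mouse 2, 0.35 at most when a mouse was left out), between regulatory cells and progenitors (-0.64 to 0.16 when a mouse was left out, positive without mouse 2 or 3) and between regulatory cells and preadipocytes (-0.31 without mouse 1 to 0.37 without mouse 3, and -0.0060 by library size, -0.083 with cells of more than 1 gate, -0.0304 at 10% mitochondrial UMIs and -0.051 without the cells with most UMIs). They also changed for Stat3 between regulatory cells and progenitors (-0.036 unfiltered, -0.083 without mouse 2 to 0.19 without mouse 1), and in the Cd44 split for Lif (0.088 at 3000 UMIs, 0.11 unthinned), Lifr (0.048 at 3000 UMIs) and Il11ra1 (-0.032 by library size).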

Other observations

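Nr4a3 and Fosl1, activation genes that are on the dissociation list, vary widely among progenitors. Progenitors with at least 2 UMIs of them together were also set beside progenitors with none, at 3000 UMIs per cell. Il6 was at 188, 428 and 319 CPM in the former and 136, 203 and 244 CPM in the latter. Lif was at 19.5, 26.4 and 22.5 CPM against 11.9, 13.3 and 14.8 CPM, with no overlap. Socs3 went the other way in each mouse, at 416, 473 and 295 CPM against 582, 515 and 386 CPM. Il6ra was near level in mouse 3, at 134.5 against 136 CPM, and higher in the former cells of mice 1 and 2 (115 and 102 against 104 and 78.5 CPM). The part of dissociation in this split was not tested.

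The 19 immediate early and heat shock genes that respond to tissue dissociation were counted where they passed edgeR's test. Their part in the Il6 differences was not tested. In Cd44-high cells, where Il6 was higher, 3 genes were higher and 8 lower, beside 7.11% and 2.74% of all genes. There Fosl1 differed by 1.94 (SE 0.182, adjusted p = 1.9e-08) and Hspa1a by -1.44 (SE 0.092, adjusted p = 3.1e-11). Nr4a3 differed by 1.47 (SE 0.172, adjusted p = 8.8e-07) and Nr4a2 by 1.62 (SE 0.383, adjusted p = 0.0059). Nr4a2 was not higher in mouse 1, at 4.00 against 4.67 CPM. In regulatory cells 6 were higher and 4 lower than in preadipocytes, beside 12.3% and 13.4% of all genes. The 4 largest changes were of Nr4a2 (2.34), Nr4a1 (1.57), Nr4a3 (1.24) and Ier3 (0.98). Against progenitors 11 were higher and 4 lower in regulatory cells, beside 18.9% and 24%. The largest changes were of Fosl1 (-2.84), Nr4a3 (-2.54), Jun (1.06) and Hspa1b (1.06). In progenitors 5 were higher and 11 lower than in preadipocytes, beside 29.2% and 27.2% of all genes. The 4 largest changes there, at 2.04 to 3.78, were rises of Nr4a3, Nr4a2, Nr4a1 and Fosl1.

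Cells that met no gate (2988, 1348 and 3517 cells) held 181, 374 and 430 CPM of Il6 in mice 1, 2 and 3. In each mouse this lay between the levels of its progenitors and of its regulatory cells. They held 26.2%, 25.8% and 29.9% of the Il6 UMIs of kept cells, and the cell with the most Il6, at 149 UMIs, was among them in mouse 2. The cells left out for meeting more than 1 gate (49, 119 and 96 cells) held 310 to 628 CPM of Il6. Their mean over the 3 mice was 515 CPM, beside 466 CPM in regulatory cells.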
